A study of Mus musculus with 2 samples.

Results

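The HoxC cluster is 1 of the 4 mammalian Hox clusters and holds 9 protein-coding genes, Hoxc4, Hoxc5, Hoxc6, Hoxc8, Hoxc9, Hoxc10, Hoxc11, Hoxc12 and Hoxc13. They were chosen by gene symbol, a rule that uses no measured value, and all 9 were found among the 43346 gene identifiers of the files. On mouse chromosome 15 they span positions 102921103 to 103036852 of GRCm38, the build also called mm10, which is 115.75 kb, and all are transcribed from the plus strand. The series measured RNA of the neural tube, from which brain and spinal cord form, in 1 group of 2 libraries from B6NCrl mouse embryos at embryonic day 11.5. Replicate 1 pooled tissue of 109 embryos and replicate 2 tissue of 88 embryos, both sexes together, with no treatment or mutation named in the labels. Neural tube tissue of many embryos was pooled, so a level is an average over all cells taken. In such tissue fewer cells of a type and less RNA per cell cannot be told apart. There was no second condition, so the question was how much RNA each HoxC gene had by its place in the cluster, from which transcripts, and how closely the pools matched.

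Hox genes encode homeodomain transcription factors that give cells their position along the head-to-tail axis. Their order on the chromosome follows their order of use: genes at the 3′ end, with low numbers, are switched on early and reach far forward, and genes at the 5′ end, with high numbers, are switched on late and stay toward the tail. In the spinal cord HoxC proteins set which motor neurons form at each level, with Hoxc6 at the forelimb level, Hoxc9 at the thoracic level and Hoxc10 at the hindlimb level.

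The libraries held 27638068 and 29166901 expected counts, the estimated reads per gene. Levels are given in TPM, a unit that brings each library to the same total and divides by transcript length, so that genes can be compared. The tissue label was set beside fixed markers, and all 5 neural progenitor and all 4 neuron markers were detected, that is at 1 TPM or more in both libraries. So were all 7 somite and sclerotome markers, whose summed TPM was 128 in replicate 1 and 117 in replicate 2, led by Uncx at 41.2 and 41.5 TPM. Of 6 limb mesenchyme markers 3 were detected, with sums of 45.4 and 34.1 TPM. All 5 sensory ganglion and neural crest, all 4 surface ectoderm, all 3 endothelium and all 3 blood markers were detected as well, and the blood markers summed to 8621 and 8682 TPM. The same rule passed 59.9% of all annotated protein-coding genes. Since lists of other tissues passed in full too, detection alone cannot check the label. Somites, limb buds and other trunk tissues also transcribe HoxC genes, and the part of such tissue in the HoxC levels was not tested.

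Some of the results turn on how exons are joined, so the joints are shown first. They are read 5′ to 3′ from the GENCODE M21 transcripts on the plus strand of GRCm38, with 30 bases on each side. The first 3 compare the joints of Hoxc10 and Hoxc5, where capitals mark the first exon. All 60 bases of each of them are coding in Hoxc10 or Hoxc5.
Hoxc10-201, chr15:102967579-102967608 joined to chr15:102970798-102970827: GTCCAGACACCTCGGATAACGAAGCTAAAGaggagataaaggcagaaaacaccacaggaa
Hoxc5-202, chr15:102967579-102967608 joined to chr15:103015228-103015257: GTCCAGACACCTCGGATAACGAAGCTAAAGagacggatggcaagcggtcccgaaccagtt
Hoxc5-201, chr15:103014506-103014535 joined to chr15:103015228-103015257: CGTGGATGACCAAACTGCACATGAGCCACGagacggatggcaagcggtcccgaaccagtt
The transcript Hoxc5-202 thus carries the end of the first exon of Hoxc10 in front of the second exon of Hoxc5. A further pair shows Hoxc8, where capitals mark what stands before the second exon: the first exon in the spliced transcript, and intron in the transcript that keeps it.
Hoxc8-201, chr15:102991186-102991215 joined to chr15:102992563-102992592: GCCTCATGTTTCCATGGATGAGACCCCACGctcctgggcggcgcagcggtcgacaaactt
Hoxc8-202, chr15:102992533-102992592: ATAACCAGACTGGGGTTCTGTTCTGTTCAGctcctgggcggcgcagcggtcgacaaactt

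The HoxC genes fell into 6 with high and 3 with low levels, and the border between them lay between Hoxc10 and Hoxc11. All 9 were detected, against 59.9% of all annotated protein-coding genes. Hoxc4 to Hoxc10 had mean levels of 28.5 to 75.4 TPM, and Hoxc11 to Hoxc13 had 1.545 to 2.995 TPM. The median of the 9 was 31.1 TPM in replicate 1 and 29.2 TPM in replicate 2.

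Hoxc4, the most 3′ member (ENSMUSG00000075394.4), had 48.7 TPM in replicate 1 and 53.4 TPM in replicate 2, from 1630 and 1847 expected counts. Hoxc5, which with its paralog Hoxa5 acts in the motor neurons of the diaphragm (ENSMUSG00000022485.3), had 27.9 and 29.2 TPM. Hoxc6, a factor of forelimb-level motor neurons (ENSMUSG00000001661.5), had 74.9 and 75.9 TPM. It was the highest member in both libraries, and its neighbour Hoxc5 was the lowest of the 6 in replicate 1 and lay just above Hoxc9 in replicate 2.

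Hoxc8, which takes part in choosing motor neuron pools at the forelimb level (ENSMUSG00000001657.7), had 52.2 and 50.5 TPM. Hoxc9, the factor of thoracic motor neurons (ENSMUSG00000036139.6), had 31.1 and 28.6 TPM. Hoxc10, a factor of the lumbar cord (ENSMUSG00000022484.7), had 45.4 and 47.9 TPM from 1429 and 1556 expected counts. Levels in this stretch did not fall steadily toward the 5′ end, since Hoxc10 stood above Hoxc9 in both libraries, by 0.64 ± 0.14 on the log2 scale (SD, n = 2).

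Hoxc11, a hindlimb and tail-level gene (ENSMUSG00000001656.3), had 1.47 and 1.62 TPM from 49 and 56 expected counts. Hoxc12, its 5′ neighbour (ENSMUSG00000050328.2), had 2.34 and 3.65 TPM from 38 and 61 counts. Hoxc13, the most 5′ member, known also for its role in hair and nails (ENSMUSG00000001655.6), had 1.85 and 3.58 TPM from 76 and 152 counts. The highest value of these 3 genes in either library, 3.65 TPM, lay below the lowest value of the other members, 27.9 TPM.

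The step between Hoxc10 and Hoxc11 was measured on log2(TPM + 0.1) and was -4.83 ± 0.04 (SD, n = 2). Counting error is wider than this SD, since the counting interval of Hoxc11 in replicate 1 ran from 1.09 to 1.94 TPM. Hoxc10 exceeded Hoxc11 30.9-fold in replicate 1 and 29.6-fold in replicate 2. The starts of the leading transcripts of these neighbours lie 12.4 kb apart, against 4.24 to 20.6 kb between other neighbours. The other 7 steps along the cluster lay between -0.84 and 1.40 on the same scale, the highest being the rise from Hoxc5 to Hoxc6.

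**Figure D1:**
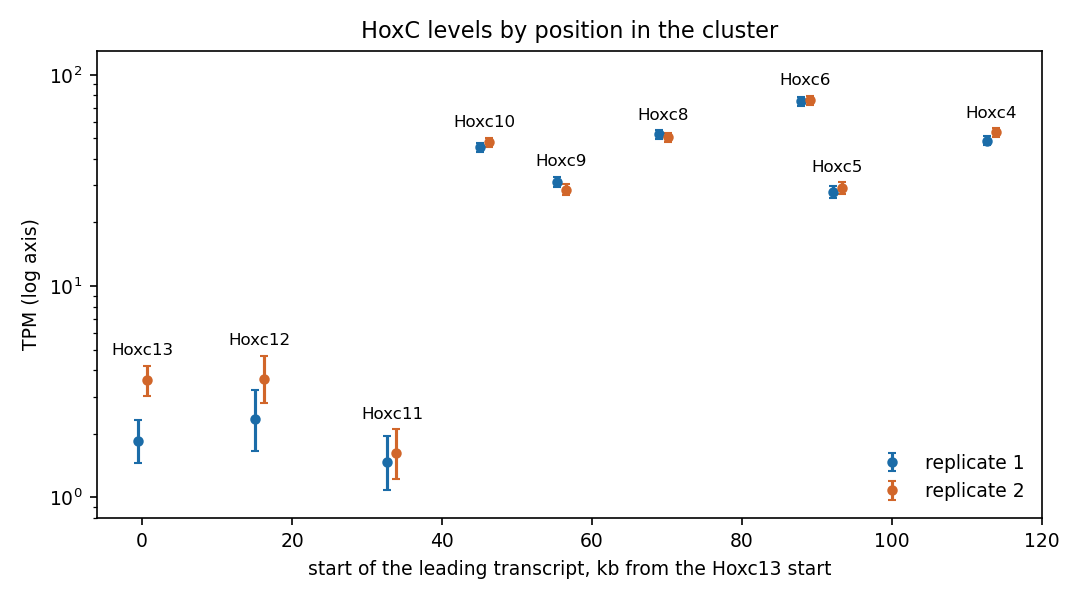
Level of each HoxC gene in TPM (log axis) against the start of its leading transcript in kb from the Hoxc13 start, for replicate 1 (blue) and replicate 2 (orange); bars are exact 95% Poisson intervals of the counts and cover counting error only. The 6 genes from Hoxc10 to Hoxc4 sit between 27.9 and 75.9 TPM, and Hoxc13, Hoxc12 and Hoxc11 sit at or below 3.65 TPM.

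In order of mean level the genes ran Hoxc6, Hoxc8, Hoxc4, Hoxc10, Hoxc9, Hoxc5, Hoxc12, Hoxc13 and Hoxc11. Neighbours in this order were called apart where neither the values of the 2 libraries nor the counting intervals within each library overlapped. Hoxc6 stood apart from Hoxc8, Hoxc10 from Hoxc9, and Hoxc5 from Hoxc12. Hoxc8 and Hoxc4, at 51.4 ± 1.21 and 51.0 ± 3.31 TPM (SD, n = 2), did not, and neither did Hoxc4 and Hoxc10, Hoxc9 and Hoxc5, Hoxc12 and Hoxc13, or Hoxc13 and Hoxc11. For Hoxc11 the counting interval ran from 1.09 to 1.94 TPM in replicate 1 and from 1.22 to 2.10 TPM in replicate 2, so the order of the 3 lowest genes is not settled at this depth.

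Hox genes of the same number in different clusters are paralogs, descended from 1 ancestral gene, and were set beside the HoxC members as a description. The HoxC genes took 27.6% of all Hox TPM in replicate 1 and 27.7% in replicate 2, over 39 Hox genes. HoxA took 30.8% and 29.7%, HoxB 30.5% and 31.2%, and HoxD 11.1% and 11.5%. These are sums over 11 HoxA, 10 HoxB, 9 HoxC and 9 HoxD genes, some in groups without a HoxC gene, and not levels per gene. Among groups 4 to 10 the median was 48.8 TPM over 6 HoxC genes, beside 49.8 TPM over 6 HoxA genes, 44.6 TPM over 6 HoxB genes and 14.9 TPM over 4 HoxD genes. Within that stretch the lowest HoxC gene had 28.5 TPM, whereas the lowest members of HoxA, HoxB and HoxD had 8.61, 2.74 and 8.04 TPM. In groups 11 to 13 the highest HoxC gene had 2.995 TPM, and the highest of HoxA, HoxB and HoxD had 5.035, 0.265 and 6.54 TPM. Lower levels in groups 11 to 13 were thus seen in every cluster and were not particular to HoxC.

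In 5 of the 9 paralog groups the HoxC gene had the highest mean level, and Hoxa5, Hoxa9, Hoxa10 and Hoxd11 led the others. Each of the 9 groups was taken because it has a HoxC gene, so HoxC could lead in all of them. The leads in groups 6 and 12 are not settled. The gap was widest among the high genes in group 4, where Hoxc4 exceeded Hoxa4 6.13-fold and 5.76-fold in the 2 libraries, Hoxd4 6.773-fold and 6.004-fold, and Hoxb4 19.9-fold and 17.6-fold. Hoxb4 itself had 2.45 and 3.03 TPM. In group 6, Hoxc6 lay above Hoxb6, at 63.7 and 69.4 TPM, by 1.18-fold and 1.09-fold, and above Hoxa6 by 5.127-fold and 5.997-fold. The lead over Hoxb6 was narrow, since the counting interval of Hoxc6 in replicate 2 began at 72.3 TPM. The interval of Hoxb6 was not computed, so this lead is not called settled. In group 8, Hoxc8 exceeded Hoxb8 2.37-fold and 2.28-fold and Hoxd8 3.15-fold and 2.77-fold.

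The HoxC gene was not the leader elsewhere in the high stretch. Hoxc5 was the last of its group, below Hoxa5 at 44.0 and 42.3 TPM and Hoxb5 at 38.2 and 38.9 TPM. Hoxc9 was the third of 4, below Hoxa9 at 82.6 and 79.3 TPM and Hoxb9 at 47.2 and 54.0 TPM and above Hoxd9 at 13.4 and 11.3 TPM. Hoxc10 lay below Hoxa10, at 55.1 and 57.8 TPM, and at about 2.07-fold the mean level of Hoxd10.

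Among the 5′ genes HoxC was below HoxD in group 11 and above it in groups 12 and 13. Hoxc11 was the last of its group, beside 6.34 and 6.74 TPM for Hoxd11 and 5.27 and 4.80 TPM for Hoxa11. The ranges did not overlap, and Hoxc11 had 0.236 times the mean level of Hoxd11. Hoxc12 lay above Hoxd12, which had 1.68 and 1.62 TPM, but its counting interval in replicate 1, 1.66 to 3.21 TPM, took in the value of Hoxd12, so this lead is not settled at this depth. Hoxc13 was the highest of group 13, above Hoxd13 at 0.31 and 0.79 TPM, Hoxb13 at 0.27 and 0.26 TPM and Hoxa13 at 0.20 and 0.08 TPM. Hoxa13 rested on 7 and 3 expected counts and Hoxb13 on 10 and 10.

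**Figure D2:**
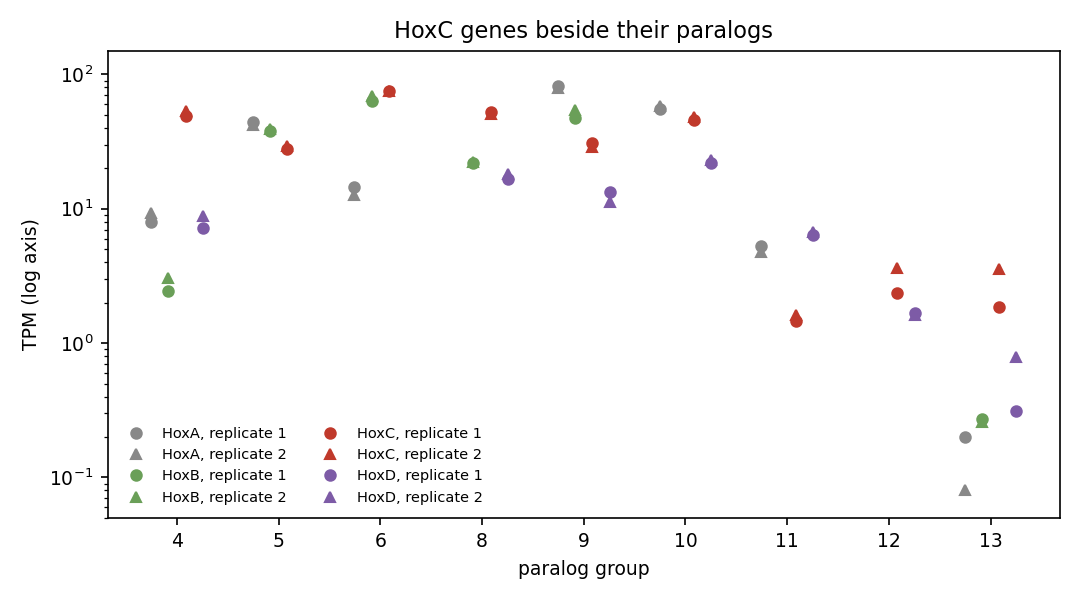
Level in TPM (log axis) of each Hox gene of the 9 paralog groups that have a HoxC member; colour gives the cluster, circles replicate 1 and triangles replicate 2. The HoxC genes (red) lead groups 4, 6, 8, 12 and 13, and Hoxc5 and Hoxc11 are the lowest of groups 5 and 11.

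The deposited transcript files split each gene over its annotated transcripts, named here by gene and number. The 9 genes had 15 transcripts. Hoxc10, Hoxc11, Hoxc12 and Hoxc13 had 1 each. In the other 5 genes the same transcript led in both libraries, and it was protein-coding in each. The share of a transcript is its percent of the gene's TPM, as deposited.

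By share of TPM, Hoxc5 was the most divided gene. The coding transcript Hoxc5-201 took 59.4% of its TPM in replicate 1 and 62.1% in replicate 2, and Hoxc5-202, annotated as a processed transcript, took 40.6% and 37.9%. Hoxc5-202 spans 48.2 kb and starts 46.4 kb before Hoxc5-201, inside the first exon of Hoxc10, as its joint printed above shows. Of its 615 bases 166 lie in that exon of Hoxc10 and 449 in the second exon of Hoxc5-201, so 0 bases are its own and its reads can be told from those of the other 2 transcripts only where they cross that joint. In expected counts its share was 11.1% and 10.0%, from 101.48 and 102.51 counts, because it is short and TPM divides by length. By counts Hoxc5 was less divided than Hoxc4, Hoxc6 and Hoxc8, whose second transcripts took 30.2% and 33.0%, 15.5% and 13.7%, and 25.2% and 19.1%. Hoxc5-201 alone had 16.6 and 18.1 TPM.

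The long transcript also bears on Hoxc10, whose 1909-base transcript shares those 166 bases. Of all windows of 100 bases in Hoxc10-201, 3.81% also occur in a Hoxc5 transcript. No window of 100 bases of any other HoxC gene's transcripts occurred in another gene of the annotation.

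Hoxc8 was divided in another way. The spliced coding transcript Hoxc8-201 took 78.1% and 83.6% of its TPM, and Hoxc8-202, annotated as a retained intron, took 21.9% and 16.4%. Hoxc8-202 holds the last 674 of the 1347 intron bases, runs 290 bases past the end of Hoxc8-201, and had 423 expected counts in replicate 1 and 316 in replicate 2. Its share was lower in replicate 2 by more than that of any second transcript of the other genes. Intron bases are read both from such a transcript and from RNA not yet spliced, and which of these gave the reads was not tested.

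Transcripts annotated with a more upstream start took a share of other 3′ genes as well. These starts come from the annotation and were not measured. Hoxc6-202, a processed transcript that begins 11.3 kb before the coding Hoxc6-201, took 24.9% and 22.1% of Hoxc6. The further Hoxc6-203 took 2.88% and 4.46%, from 16.48 and 26.64 expected counts, leaving 72.2% and 73.5% for Hoxc6-201. Hoxc4-202, a coding transcript that begins 15.5 kb before Hoxc4-201, took 28.8% and 31.4%. These transcripts have 515, 312 and 585 bases found in no other annotated transcript. For Hoxc9 the second coding transcript, Hoxc9-202, had 0 counts in both libraries, and 56 of its bases are its own.

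**Figure D3:**
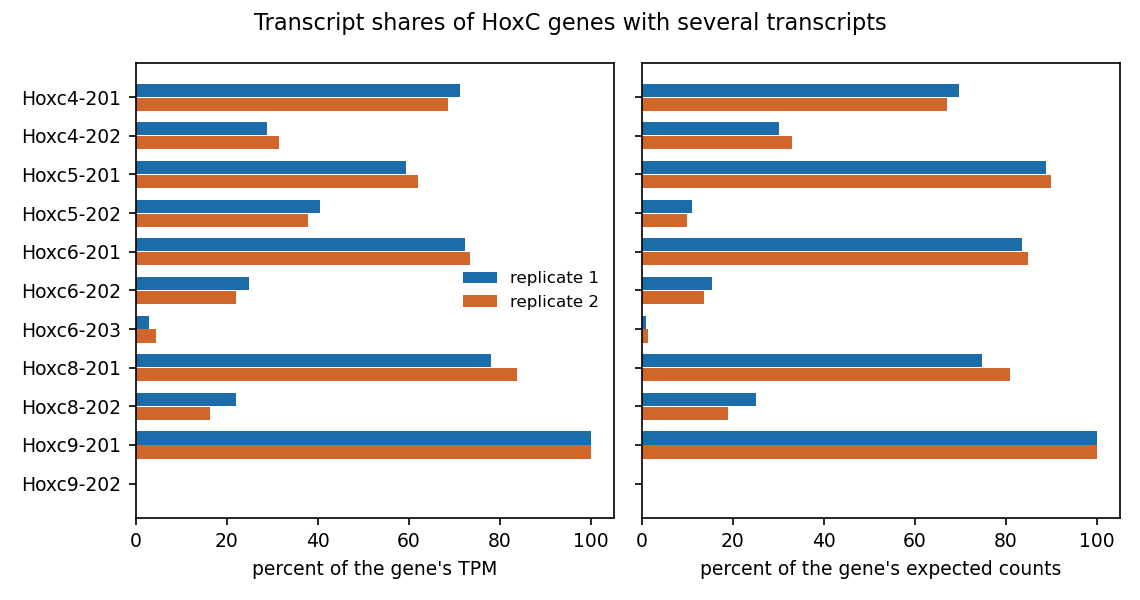
Share of each annotated transcript of the 5 HoxC genes with several transcripts, as percent of the gene's TPM (left) and of its expected counts (right), for replicate 1 (blue) and replicate 2 (orange). Hoxc5-202 takes 40.6% and 37.9% of TPM but 11.1% and 10.0% of counts.

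Replicate 2 was set against replicate 1 to see how far the pools matched. With 1 pool on each side this compares these libraries only and has no test. Ratios were scaled so that most genes did not move, and 95% intervals are exact binomial ones that cover counting error only. Of the 9 genes 1 passed 1.5-fold, beside 10.7% of the 17085 genes with enough counts. The median log2 ratio of the 9 was 0.07, beside -0.0014 over all genes tested. The interval left out a ratio of 1 for 3 of the 9, beside 30.8% of all genes.

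The 6 genes from Hoxc4 to Hoxc10 had log2 ratios between -0.16 and 0.09. Hoxc9 had a ratio of 0.894 (0.824 to 0.969) and Hoxc8 of 0.929 (0.868 to 0.995), so both were slightly lower in replicate 2, but scaling by the spike-in total moved all genes up by 0.20 (log2) and put them at 0.04 and 0.09. Hoxc6, at a ratio of 0.985, changed sign in the same way, to 0.18.

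Hoxc13 was the gene past 1.5-fold, with a ratio of 1.86 (1.42 to 2.51). A ratio at or above 1.5 was seen for 4.85% of all genes tested, and in 7.1% of the 3732 genes with a mean of 25 to under 200 counts. Hoxc12 followed at 1.49 (0.991 to 2.33), while Hoxc11, the third low gene, had 1.07 (0.720 to 1.61). Of the paralogs, Hoxd13 had 13 and 34 counts and a ratio of 2.27 (1.27 to 5.08), whereas Hoxd12 had 71 and 71 counts and a ratio of 0.942 (0.668 to 1.33). The other paralogs of group 13 had ratios below 1 with wide intervals, 0.951 (0.351 to 2.52) for Hoxb13 and 0.533 (0.0673 to 1.77) for Hoxa13.

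Several marker lists also had unequal sums in the pools. The summed TPM of the 4 tailbud markers was 3.82 and 4.47, with Cdx2 at 0 counts in both libraries and the other 3 at 9 and 3 counts for Fgf8, 37 and 46 for T, and 95 and 126 for Wnt3a. The motor neuron column list summed to 425 and 501 TPM and the 4 neuron markers to 1162 and 1352 TPM. The limb mesenchyme sum was 45.4 and 34.1 TPM, and its 3 detected members were all lower in replicate 2. Prrx1 had 30.2 and 24.2 TPM, Prrx2 10.8 and 7.13 TPM, and Pitx1, a hindlimb factor, 4.03 and 2.05 TPM. The forelimb factor Tbx5 had 0.12 and 0.36 TPM, the hindlimb factor Tbx4 0.16 and 0.19 TPM, and Hand2 0.06 and 0.17 TPM. These were higher in replicate 2 but rested on 8 and 25, 8 and 10, and 2.27 and 6.48 expected counts. The 5 markers of sensory ganglia and neural crest summed to 57.8 and 71.0 TPM. Their part in the Hoxc13 difference was not tested.

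**Figure D4:**
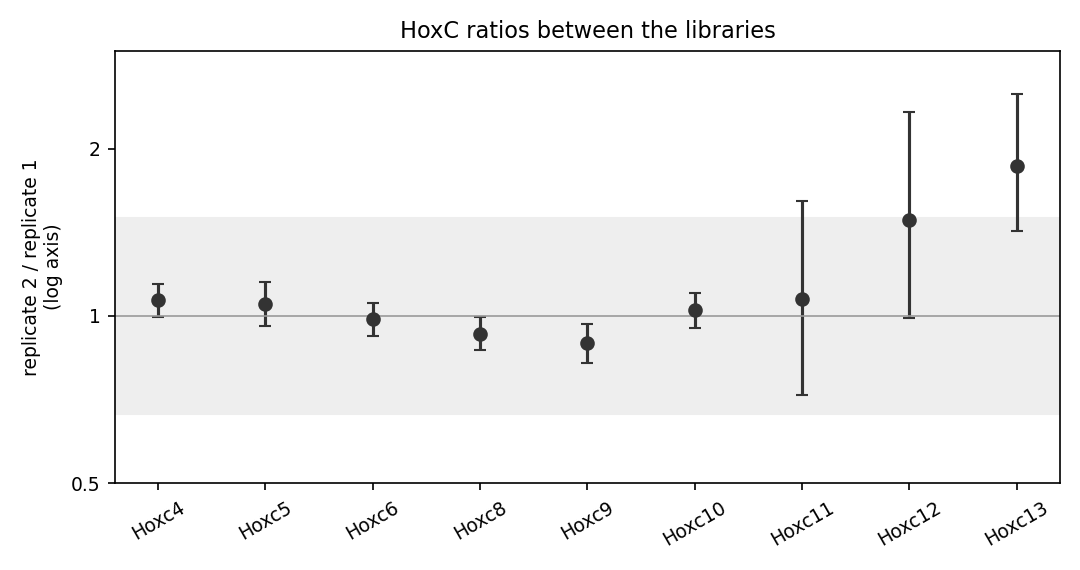
Ratio of replicate 2 to replicate 1 (log axis) for each HoxC gene, with exact 95% binomial intervals for counting error; the grey band covers 1.5-fold either way. Hoxc13 lies outside the band at 1.86, Hoxc12 at its edge at 1.49, and the 6 genes from Hoxc4 to Hoxc10 lie close to 1.

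The span also holds RNAs that are not proteins. Hotair, a long noncoding RNA known for its links to Polycomb repression (ENSMUSG00000086903.4, positions 102944062 to 102947730, minus strand), lies between Hoxc12 and Hoxc11. It had 1.54 and 1.49 TPM from 51 counts in each library, which is near the level of Hoxc11, 1.47 and 1.62 TPM. It shares no exon base with a HoxC gene. The 4 short noncoding entries Gm27337, Gm27443, Gm28011 and Gm27535, which also lie between Hoxc12 and Hoxc11, had at most 1 count in a library. Gm27337 and Gm27443 had an effective length of 0, as had Mir615, so their 0 counts say nothing of their levels.

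The microRNA genes Mir196a-2, between Hoxc10 and Hoxc9, and Mir615, in the intron of Hoxc5, lie in the span too. Their main mature forms from RefSeq (GRCm38.p6, plus strand) are shown with the seed, bases 2 to 8, in capitals.
mmu-miR-196a-5p, chr15:102973365-102973386: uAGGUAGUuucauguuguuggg
mmu-miR-615-3p, chr15:103014969-103014990: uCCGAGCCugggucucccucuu
Libraries were made from RNA longer than 200 bases, so mature microRNAs were not measured. The entry for Mir196a-2 had 1 and 0 counts and that for Mir615 had 0 and 0. The 5.23 TPM listed for Mir196a-2 in replicate 1 comes from that 1 count over an effective length of 11 bases and is no measure of its level.

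MicroRNA miR-196 is known to pair with Hox transcripts, so the match to its seed, ACTACCT, was looked for in the 3′ UTRs of the 9 leading coding transcripts, on the transcribed strand alone. Hoxc8 had 2 matches in 966 bases and the other 8 genes had none. Of 2709 3′ UTRs of like length in the annotation, 3.73% held at least 1, and the share with 2 was not counted. For the other 8 genes, the share of UTRs of like length with a match ran from 0.53% for Hoxc12 to 7.77% for Hoxc5. Whether 1 gene of 9 with a match is more than such UTRs would give was not tested. The matches are shown with their flanks because Hoxc8 was the only one of the 9 with any, and capitals mark the match.
Hoxc8 first match, chr15:102992976-102992997: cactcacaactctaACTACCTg
Hoxc8 second match, chr15:102993733-102993754: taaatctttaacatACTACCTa
A match to these letters does not show that a site is used.

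Hox proteins bind DNA together with the cofactors Meis, Pbx and Pknox. All 9 of these genes were detected, beside 59.9% of all annotated protein-coding genes. The list median was 36.8 TPM. Meis1 had 143 and 151 TPM, Meis3 131 and 153 TPM, Meis2 86.5 and 93.0 TPM and Pbx3 63.9 and 69.7 TPM. None of the 9 passed 1.5-fold between the libraries, beside 10.7% of all genes tested.

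Beside 59.9% of all annotated protein-coding genes, 9 of 12 genes that act upstream of Hox genes were detected. They include the retinoic acid receptor genes Rara, at 58.35 and 57.96 TPM, and Rarb, at 50.9 and 57.4 TPM, Acvr2b, a receptor of Gdf11, at 59.8 and 64.7 TPM, and Aldh1a2, which makes retinoic acid, at 68.6 and 85.9 TPM. The Cdx genes, which switch on trunk Hox genes in axial progenitors, were not: Cdx2 and Cdx4 had 0 counts, which allows up to 0.0798 and 0.0925 TPM in replicate 1, and Cdx1 had 2 and 6 counts. Past 1.5-fold was 1 gene of the list, beside 10.7% of all genes tested: Cyp26a1, which breaks down retinoic acid, at 2.58 and 1.36 TPM.

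All 12 chromatin genes, Polycomb subunits, demethylases and the insulator gene among them, were detected, beside 59.9% of all annotated protein-coding genes. The list median was 18.99 TPM. Ezh2, the Polycomb methyltransferase, had 95.2 and 95.9 TPM, Ctcf, which binds insulators within Hox clusters, had 73.5 and 85.1 TPM, Cbx2 47.8 and 51.5 TPM and Eed 39.8 and 39.8 TPM. None of the 12 passed 1.5-fold, beside 10.7% of all genes tested.

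Of 16 genes of motor neuron columns and pools, many of them known to depend on Hox genes, 14 were detected in both libraries. The same held for 59.9% of all annotated protein-coding genes. Isl1 had 86.0 and 109 TPM, Foxp1, the cofactor that limb-level motor neurons need to read the Hox code, had 86.9 and 91.7 TPM, and Isl2 had 28.7 and 42.0 TPM. Nos1, a marker of the preganglionic neurons of the thoracic cord, had 0.63 and 0.56 TPM, and Runx1 had 1.54 and 0.93 TPM. Past 1.5-fold was 1 gene of the list, beside 10.7% of all genes tested: Mnx1, a motor neuron factor, at 3.46 and 6.02 TPM.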

How the data were processed

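Total RNA-seq libraries of neural tube were deposited as 1 gene and 1 transcript table per replicate. Per the labels' protocols, each began with 10 ng of RNA above 200 bases, with spike-ins. Expected counts and TPM were deposited by the authors, made on mm10 with GENCODE M4, per the deposited file descriptions; aligner, quantifier and strandedness were not given in the sources used here. Deposited TPM covers all entries, so spike-ins took 13.2% and 11.8% of it. Transcript shares were deposited as a percent of the gene's TPM. A posterior mean estimate in the same files served as an alternative.

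GENCODE M21 (GRCm38) supplied symbols and positions, joined on the identifier without its version; 42462 of 43346 matched. The lengths of all 15 HoxC transcripts were the same in the files and in M21. Expected counts were rounded to whole numbers for edgeR 4.0.16 (R 4.3.3), whose TMM factors were 0.996 and 1.004. Log2 ratios were taken with a prior count of 2, for genes that reached 10 counts in either library. DESeq2 1.42.0 gave alternative size factors. Python 3.11.15 with scipy 1.17.1 did the rest, and the ratio step was tested on simulated data. Intervals, and limits set from 3 counts for a count of 0, hold for counting error alone, since no molecular identifiers are named in the labels and reads need not be separate molecules.

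The members, lists and alternatives were chosen with earlier results of these data known; the search for seed matches and the band of 25 to under 200 counts were added after values were seen. The rule for naming genes took all members, their paralogs, the genes inside the span, the 3 nearest protein-coding genes on either side and, of each list, the 4 highest and up to 3 below 1 TPM. Cyp26a1, Mnx1 and Runx1, and the 5 entries between Hoxc4 and Smug1, stand outside it and were chosen after their values were seen. A planned comparison of protein sequences and of promoter base composition was not run.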

Additional observations from a re-analysis of the deposited data

How the results depend on the processing

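No paired analysis was possible because the series has 1 group, so no pool has a partner in another. The median level of the 9 HoxC genes ranged from 29.2 to 31.1 TPM when either replicate was left out and became 34.1 TPM when TPM was rescaled over annotated genes. The step from Hoxc10 to Hoxc11 was -4.23 with a pseudocount of 1, -4.91 with 0.01 and -4.91 with expected counts per kilobase, and -4.86 to -4.80 without either replicate. The HoxC share of Hox RNA was 27.5% with posterior mean TPM and 27.4% in expected counts. The number of HoxC genes past 1.5-fold was 2 with spike-in scaling and 2 with a prior count of 0.5, which add Hoxc12 (log2 ratio 0.76 and 0.59), and 0 at a threshold of 2-fold. It was 1 with DESeq2 size factors and total counts. Leaving out the count filter could not change it, since all 9 genes pass the filter and the scaling was kept. The share of Hoxc5-202 ran from 37.9% to 40.6% without either replicate. At 5 TPM 6 genes counted as detected, and at 0.5 TPM 9. The number of paralog groups led by HoxC was 5 with posterior mean TPM and without either replicate. Of 123 alternatives for single genes, steps and transcripts, 112 moved by less than the replicate SD or kept their side of 1.5-fold. None of the 123 turned the sign of a ratio past 1.5-fold. Only Hoxc13, at a log2 ratio of 0.90, was past it in the main setting. Rescaling moved log2 ratios by at most 0.20, so its sign could not turn. Such a shift also could not carry the ratios of Hoxc4 to Hoxc11, -0.16 to 0.10, past 1.5-fold. Leaving out a replicate always moves a mean of 2 values by less than their SD. Among the 112, the alternatives without a replicate and the rescaled ratios of Hoxc4 to Hoxc11 and of Hoxc13 were thus fixed in advance. They say nothing of stability. Spike-in scaling turned the log2 ratios of Hoxc6, Hoxc8 and Hoxc9 from below 0 to 0.18, 0.09 and 0.04. Hoxc11, Hoxc12 and Hoxc13 rest on 38 to 152 counts a library, which limits their order.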

Other observations

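The genes on either side of the cluster were described by their levels, with no test. Before Hoxc13 the nearest protein-coding genes, Calcoco1, Atp5g2 and Atf7, lie 199, 249 and 296 kb away and had 28.1 and 32.0, 152 and 157, and 14.04 and 11.03 TPM. After Hoxc4 come Smug1, a DNA repair glycosylase gene 116 kb away, at 39.5 and 49.3 TPM, Cbx5, which encodes heterochromatin protein 1 alpha, at 141 and 146 TPM, and Hnrnpa1, an RNA-binding protein gene, at 1032 and 1064 TPM. The 3 low HoxC genes thus lie between neighbours with more RNA on both sides, Calcoco1 and Hoxc10.

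Between Hoxc4 and Smug1 the annotation has 5 further entries listed in the files, 4 lincRNA genes and 5730585A16Rik, whose type the annotation leaves to be established. Gm28876, a lincRNA gene 59.3 kb past Hoxc4, had the most RNA, with 11.5 and 15.0 TPM from 121 and 163 expected counts, and 5730585A16Rik, 21.4 kb past Hoxc4, had 7.25 and 5.82 TPM. Gm28876 thus stood above Hoxc11, Hoxc12 and Hoxc13 in both libraries. D930007P13Rik had 0.52 and 0.68 TPM, and Gm10830 and Gm28265, which overlap each other on opposite strands and cannot be told apart without strand, had at most 1.22 TPM.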
